A study of Mus musculus with 15 samples.

Results

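The genes described here mark the gut wall's own nervous system and its pacemaker cells: 42 genes of enteric neurons, enteric glia and interstitial cells of Cajal, taken as a list of symbols and read out of a mouse colon expression array. All 42 were found, each with 1 probe set, among 19527 probe sets that carry exactly 1 gene symbol and 22142 in all. They were sorted by role into 13 genes of neuronal structure (cytoskeleton, membrane and RNA-binding proteins), 6 of synaptic vesicles and secretory granules, 10 of transmitters and neuropeptides with Calb2, 5 receptors and transcription factors of the neural crest lineage, 6 glial genes and 2 genes of Cajal cells.

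Whole colon RNA came from 15 mice at 11 weeks of age, 5 per genotype, with 100 ng of total RNA and 1 Clariom S mouse array per mouse. NEMO FL mice carried floxed alleles of Nemo (Ikbkg), whose product is the regulatory subunit of the IκB kinase complex. NEMO IEC-KO mice, Ripk1 wt/wt by their label, lacked NEMO in intestinal epithelial cells through Villin-Cre, a driver confined to epithelium, so that the deletion was not directed at neurons, glia or muscle. NEMO IEC-KO Ripk1 S166A/S166A mice, below the S166A/S166A mice, carried the same deletion and in every cell a RIPK1 kinase whose serine 166, an autophosphorylation site, is alanine; that allele was made by CRISPR/Cas9 in C57BL/6 oocytes. The design asks how far the colitis of NEMO IEC-KO mice needs that site. NEMO FL mice were 18a, 22a, 28a, 29a and 55a, NEMO IEC-KO mice 16a, 30a, 31a and those called here the fourth and the fifth, and S166A/S166A mice 94a, 95a, 33a, 27a and 56a; values per mouse are given in this order.

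The enteric nervous system arises from neural crest cells that enter the gut under the control of the receptor RET, its ligand GDNF and the endothelin receptor EDNRB. Its neurons lie in plexuses, within the muscle coat and beneath the mucosa, and excite muscle with acetylcholine and tachykinins or relax it with nitric oxide and vasoactive intestinal peptide. Enteric glia surround these neurons, and interstitial cells of Cajal, which need the receptor KIT, generate the slow electrical waves of gut muscle through the chloride channel ANO1.

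Ikbkg lay between 6.18 and 6.55 in NEMO FL, 4.85 and 5.30 in NEMO IEC-KO and 5.23 and 5.43 in S166A/S166A mice, all on the log2 scale of the table. Mouse 55a is titled as a control but has the genotype label NEMO IEC-KO Ripk1 wt/wt; it was placed by its title, and its Ikbkg value was 6.28. Array medians spanned 6.27 to 6.36, and the interquartile range was narrower in S166A/S166A mice 94a (3.06) and 95a (3.01) than in the other arrays (3.22 to 3.40). Y-linked transcripts were present in 1 NEMO FL, 2 NEMO IEC-KO and 5 S166A/S166A mice, so that sex and genotype partly coincide. In mice without them, Y-linked probe sets read 2.28 to 3.97, a rough gauge of signal without transcript. Chat, the acetylcholine-synthesising enzyme of cholinergic neurons, lay at 2.47 to 3.37 in all 15 mice, within that range, and Scg3 did so in 6 mice, Elavl3 in 2 and Elavl4 and Nefm in 1 each. The further defining markers of neurons (Prph, Ret, Tubb3, Uchl1, Snap25), glia (Sox10, S100b, Gfap, Entpd2) and Cajal cells (Kit, Ano1, Etv1) lay above it in every mouse. S100b did so only narrowly, at 4.04 at the lowest.

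In the colon of NEMO IEC-KO mice a broad part of the list was lower than in NEMO FL mice, and a single gene was higher. Of the 42 genes 15 fell and 1, Tac1, rose at an adjusted p under 0.05 (limma, adjusted over all 22142 probe sets), and 26 did not pass. Over the whole array, 13.8% of probe sets fell and 11.6% rose, against 35.7% and 2.38% of the list. That share rises among brighter probe sets. With those below the 25th percentile of the mean left out, 34% passed in either direction, as did 16 of 36 members. With those below the median left out, 41.5% passed, as did 12 of 23 members. The median log2 change of the list was -0.38, and that of all probe sets 0.01; 35 of the 42 estimates were below 0. At an unadjusted p under 0.05, 20 were lower (19.1% of all probe sets) and 1 higher (17.5%). The genes that fell were Stmn2, Ncam1, Cntnap1, Prph and Nefl of neuronal structure, Syt1 and Snap25 of the vesicle, Calb2 and Nos1 among the transmitter genes, Ednrb and Gfra2 of the crest lineage, Erbb3 and Entpd2 of glia, and Ano1 and Kit of Cajal cells. In 9 of the 15, every NEMO IEC-KO mouse lay below every NEMO FL mouse, which 10.2% of all probe sets did, and Tac1 was the 1 gene whose groups separated upwards (8.04% of all). For each of these 10 genes the exact two-sided permutation test gave p = 0.00794, the smallest that 252 assignments of 10 mice allow. In whole tissue, fewer cells of a type and less RNA per cell cannot be told apart.

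In the same comparison smooth muscle genes fell as well, and leukocyte genes rose. All 14 measured smooth muscle genes fell (median log2 change -1.55), and the mean of the list per mouse spanned 10.15 to 10.63 in NEMO FL and 7.71 to 9.26 in NEMO IEC-KO mice, lowest in the fifth NEMO IEC-KO mouse. All 7 leukocyte genes rose (median 1.85), with list means of 5.55 to 6.17 and 7.73 to 9.35, highest in the same mouse. It also had the lowest mean of its group for neuronal structure (5.78), vesicle (5.41), crest lineage (6.80) and glial genes (6.09). Without it 11 list members passed in place of 16, as they did without NEMO FL mouse 28a or 29a, and each time Prph, Nefl, Snap25, Nos1 and Entpd2 were lost. Over all 10 removals of a single mouse, Prph lost its call in 6 and Nefl, Snap25, Nos1 and Entpd2 in 7 each, while the other 11 genes kept theirs in every one. With mouse 55a moved to NEMO IEC-KO by its genotype label, 7 of the 16 calls were kept, those of Stmn2, Ncam1, Tac1, Gfra2, Ednrb, Kit and Ano1; Calb2 (adjusted p = 0.119, limma), Syt1, Cntnap1, Erbb3, Snap25, Nos1, Prph, Nefl and Entpd2 were lost and Elavl3 was gained. Of the other marker lists, 4 of 8 fibroblast, 1 of 7 endothelial and 2 of 11 epithelial genes fell and 1 epithelial gene rose. Among 9 mast cell genes 3 rose, and of 12 enteroendocrine genes 2 fell and 1 rose. Over the whole array 13.8% of probe sets fell and 11.6% rose, so the endothelial, epithelial and enteroendocrine counts lay near those shares. The part of these cells in the changes of the neural genes was not tested.

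**Figure D1:**
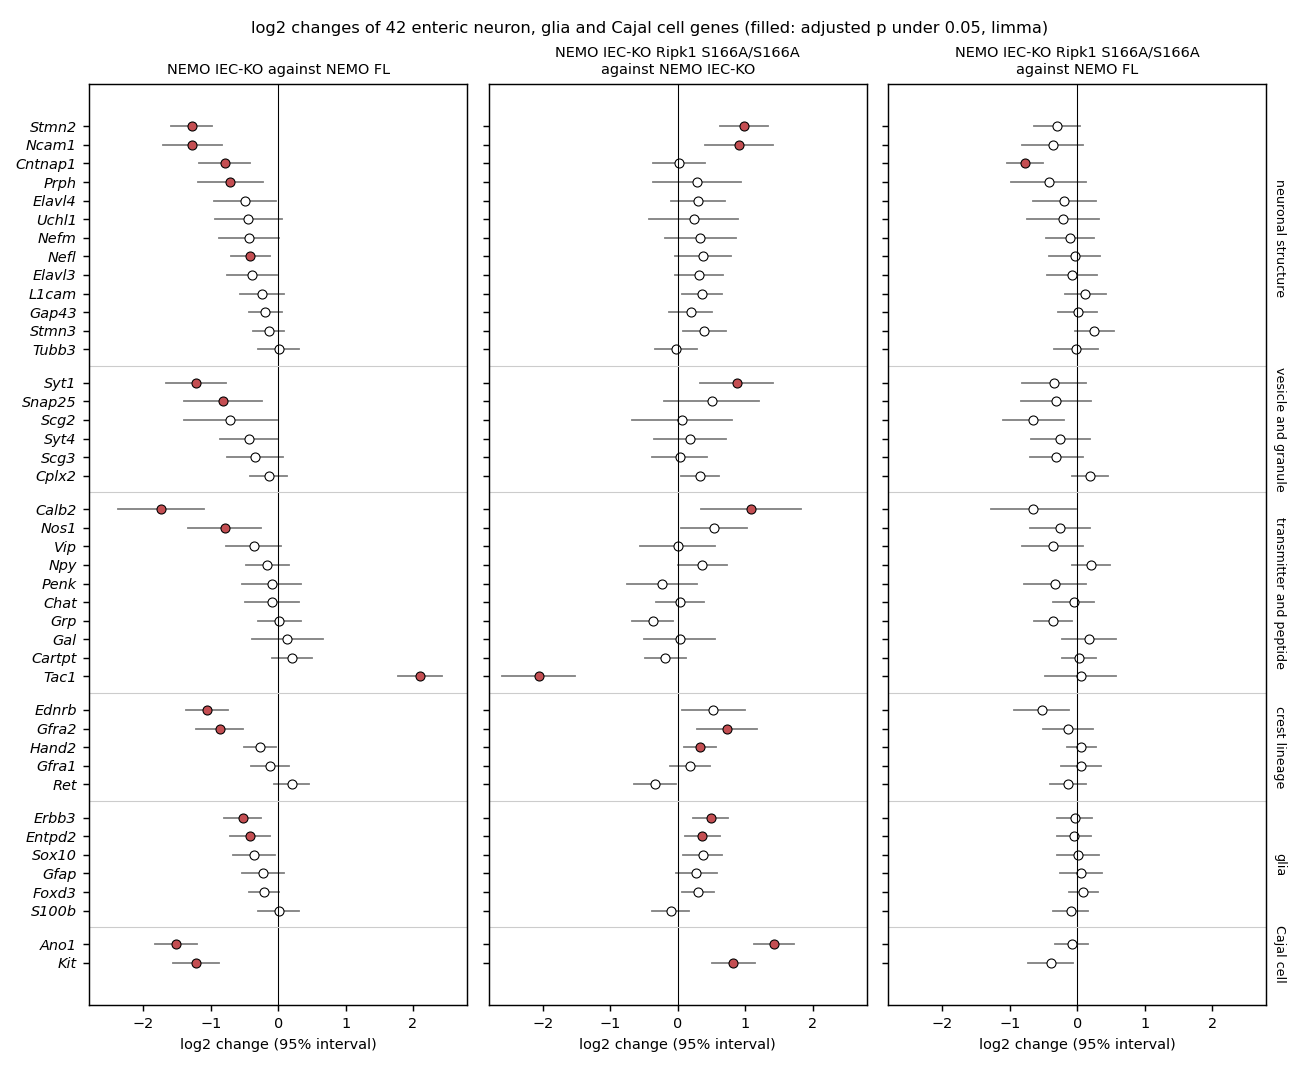
Each row is 1 of the 42 genes, ordered within its role; points give the log2 change and lines its 95% interval in 3 comparisons of 5 against 5 mice, filled where the adjusted p was under 0.05. Filled points lie left of 0 for 15 genes and right of 0 for Tac1 in NEMO IEC-KO against NEMO FL, right of 0 for 10 genes and left of 0 for Tac1 in the S166A/S166A mice against NEMO IEC-KO, and at Cntnap1 alone against NEMO FL.

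RefSeq promoter windows (GRCm38.p6, 250 bases before to 50 after the annotated start) were at hand for 27 of the 42 genes. Those of the 4 genes with the largest passing change in NEMO IEC-KO mice among these 27 are shown, since Tac1 moved against the other 3. Tac1 is at chr6:7554811-7555110, plus strand, Ano1 at chr7:144738524-144738823, minus strand, Syt1 at chr10:109010926-109011225, minus strand and Kit at chr5:75574737-75575036, plus strand; Syt1 and Kit have 2 windows each, of which the one listed first is given. Capitals mark 3 motifs on either strand, none overlapping another. The first is the E-box with the letters CACGTG. The second is the core of the GC box, spelled GGGCGG. The third is the TATA box core, which reads TATAAA.
Tac1: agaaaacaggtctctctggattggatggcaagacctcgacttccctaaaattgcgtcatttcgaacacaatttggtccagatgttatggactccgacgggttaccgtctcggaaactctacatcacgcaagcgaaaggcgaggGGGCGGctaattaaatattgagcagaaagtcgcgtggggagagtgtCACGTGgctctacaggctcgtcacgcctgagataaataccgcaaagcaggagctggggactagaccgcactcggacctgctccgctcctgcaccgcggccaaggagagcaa
Ano1: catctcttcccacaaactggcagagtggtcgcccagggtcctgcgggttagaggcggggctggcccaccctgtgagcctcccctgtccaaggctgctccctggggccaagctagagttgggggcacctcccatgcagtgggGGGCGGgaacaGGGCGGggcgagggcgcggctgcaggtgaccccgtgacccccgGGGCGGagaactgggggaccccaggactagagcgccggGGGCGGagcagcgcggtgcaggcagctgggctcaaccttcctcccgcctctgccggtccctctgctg
Syt1: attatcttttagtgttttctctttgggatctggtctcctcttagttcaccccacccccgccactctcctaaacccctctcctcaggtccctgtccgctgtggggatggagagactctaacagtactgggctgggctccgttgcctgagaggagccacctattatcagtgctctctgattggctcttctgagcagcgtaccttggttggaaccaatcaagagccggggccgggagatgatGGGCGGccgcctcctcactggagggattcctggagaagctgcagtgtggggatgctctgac
Kit: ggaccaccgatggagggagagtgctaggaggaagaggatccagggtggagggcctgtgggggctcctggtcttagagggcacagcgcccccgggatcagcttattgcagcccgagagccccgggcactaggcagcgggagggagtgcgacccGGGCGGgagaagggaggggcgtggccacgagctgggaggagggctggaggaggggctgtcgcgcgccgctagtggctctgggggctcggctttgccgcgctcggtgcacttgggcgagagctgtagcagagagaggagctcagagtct
The Tac1 window held 1 E-box and 1 GC box, that of Ano1 held 4 GC boxes, and those of Syt1 and Kit held 1 GC box each. An E-box occurred in 7.15% of all 32851 windows and in 3 of the 27 genes (Tac1, Chat and Foxd3), a GC box in 35.7% and in 13 genes, and TATAAA in 13.6% and in 3 genes (Elavl3, Prph and Vip). A match is a run of letters, not a shown binding site.

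Of the 13 genes of neuronal structure 5 fell and none rose in NEMO IEC-KO mice (median log2 change -0.43). Of all probe sets 13.8% fell and 11.6% rose. Stmn2 encodes stathmin 2, which regulates microtubules in growing axons. The log2 values of Stmn2 were 7.42, 7.71, 8.02, 7.87 and 7.73 in NEMO FL and 6.53, 6.32, 6.48, 6.83 and 6.15 in NEMO IEC-KO mice. The S166A/S166A mice had 7.27, 7.19, 7.17, 7.88 and 7.75. Every NEMO IEC-KO mouse lay below every other mouse of the study. The means were 7.75 ± 0.22 and 6.47 ± 0.25 (SD, n = 5 each), a change of -1.29 on the log2 scale (SE 0.14, adjusted p = 1.36e-05, limma), or 2.44-fold lower. Ncam1, the neural cell adhesion molecule, fell too. Per mouse, Ncam1 read 7.87, 7.90, 8.52, 8.58 and 8.01 in NEMO FL and 7.18, 7.30, 6.66, 7.13 and 6.25 in NEMO IEC-KO mice. In S166A/S166A mice it lay at 7.31, 7.55, 7.53, 8.41 and 8.26. The NEMO IEC-KO values again lay below all others, and the fifth NEMO IEC-KO mouse was the lowest. Against NEMO FL mice the change was -1.27 on the log2 scale (SE 0.20, adjusted p = 0.000322, limma). Cntnap1 encodes the contactin-associated protein of axons at the junction with myelinating glia. Cntnap1 measured 5.65, 5.89, 6.09, 6.14 and 5.85 in NEMO FL and 5.22, 5.24, 4.68, 4.76 and 5.74 in NEMO IEC-KO mice. Cntnap1 in S166A/S166A mice was 5.28, 5.36, 4.90, 5.06 and 5.15. Here 4 of 5 NEMO IEC-KO mice and all 5 S166A/S166A mice lay below the NEMO FL mice, while the fifth NEMO IEC-KO mouse overlapped them; the change in NEMO IEC-KO mice was -0.80 on the log2 scale (SE 0.18, adjusted p = 0.00424, limma).

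Prph, the intermediate filament peripherin of peripheral neurons, changed by -0.71 on the log2 scale (SE 0.22, adjusted p = 0.0302, limma), and Nefl, the light neurofilament chain, by -0.41 on the log2 scale (SE 0.14, adjusted p = 0.0376, limma); for both the groups overlapped. Elavl4 (HuD), an RNA-binding protein used as a marker of neuronal cell bodies, did not pass. NEMO FL mice had Elavl4 at 4.02, 4.80, 5.32, 5.18 and 4.81, and NEMO IEC-KO mice at 4.58, 4.29, 4.39, 4.62 and 3.79. Values of 4.14, 4.66, 4.41, 5.01 and 4.95 were read in the S166A/S166A mice. NEMO FL mouse 18a, at 4.02, lay below 4 of the 5 NEMO IEC-KO mice, and the estimate was -0.49 on the log2 scale (SE 0.22, adjusted p = 0.112, limma). Without that mouse Elavl4 passed at -0.69 with an adjusted p of 0.0109. The related Elavl3 had an estimate of -0.39, the deubiquitinase Uchl1 (PGP9.5) -0.45 and the medium neurofilament chain Nefm -0.43, none past the threshold. Tubb3, the neuronal beta-tubulin, read 6.25 to 7.00 in NEMO FL and 6.51 to 6.92 in NEMO IEC-KO mice, a difference of 0.01 with a 95% interval of -0.29 to 0.31. The intervals of Stmn3 (-0.37 to 0.09), Gap43 (-0.43 to 0.05) and L1cam (-0.57 to 0.09) also included 0.

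Syt1, the calcium sensor of transmitter release, and Snap25, a SNARE protein of vesicle fusion, fell, as 13.8% of all probe sets did. The other 4 vesicle and granule genes did not pass (median over the 6 of -0.57). The log2 values of Syt1 were 7.16, 7.77, 7.96, 7.90 and 7.76 in NEMO FL and 6.94, 6.28, 6.48, 6.91 and 5.82 in NEMO IEC-KO mice. The S166A/S166A mice had 6.99, 7.01, 7.13, 8.31 and 7.37. The 5 NEMO IEC-KO mice lay below all others, with a change against NEMO FL mice of -1.22 on the log2 scale (SE 0.21, adjusted p = 0.000501, limma), 2.33-fold. Snap25 was less even. Per mouse, Snap25 read 7.43, 7.88, 8.17, 7.92 and 7.69 in NEMO FL and 7.65, 6.24, 7.09, 7.76 and 6.25 in NEMO IEC-KO mice. In S166A/S166A mice it lay at 7.33, 6.88, 7.08, 8.54 and 7.67. NEMO IEC-KO mouse 30a and the fifth, at 6.24 and 6.25, lay lowest, while 16a and the fourth lay among the NEMO FL mice; the estimate was -0.82 on the log2 scale (SE 0.27, adjusted p = 0.0366, limma). For the granule protein Scg2 the NEMO IEC-KO mice read 7.06, 6.63, 6.77, 6.97 and 4.88, with the fifth NEMO IEC-KO mouse far below the rest, and the estimate was -0.71 on the log2 scale (SE 0.32, adjusted p = 0.123, limma). Syt4, Scg3 and the complexin Cplx2 had estimates of -0.43, -0.34 and -0.14.

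The transmitter genes did not move together. Calb2, the calcium-binding protein calretinin of excitatory and sensory enteric neurons, fell the most of the 42 genes. Calb2 measured 6.01, 6.39, 6.90, 6.99 and 7.16 in NEMO FL and 5.63, 4.49, 4.64, 5.84 and 4.16 in NEMO IEC-KO mice. Calb2 in S166A/S166A mice was 5.04, 5.77, 5.95, 7.04 and 6.39. All NEMO IEC-KO mice lay below all NEMO FL mice, and the change was -1.74 on the log2 scale (SE 0.30, adjusted p = 0.000593, limma), 3.33-fold, with a 95% interval of -2.38 to -1.10. Nos1, the neuronal nitric oxide synthase of inhibitory motor neurons, fell by less. NEMO FL mice had Nos1 at 5.51, 6.45, 6.48, 6.77 and 6.42, and NEMO IEC-KO mice at 5.75, 5.15, 4.93, 6.34 and 5.49. Values of 5.76, 5.86, 5.86, 6.39 and 6.47 were read in the S166A/S166A mice. NEMO FL mouse 18a, at 5.51, lay within the NEMO IEC-KO range, the fourth NEMO IEC-KO mouse, at 6.34, lay just below the other NEMO FL mice, and the change was -0.79 on the log2 scale (SE 0.25, adjusted p = 0.0314, limma). Vip, the peptide of the same inhibitory neurons, had an estimate of -0.36 that did not pass (adjusted p = 0.19, limma).

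Tac1 encodes substance P and neurokinin A, tachykinins of excitatory motor and sensory neurons that enterochromaffin cells can also make. The log2 values of Tac1 were 7.80, 7.53, 7.69, 7.59 and 8.19 in NEMO FL and 10.00, 10.04, 9.89, 10.00 and 9.40 in NEMO IEC-KO mice. The S166A/S166A mice had 7.95, 6.81, 8.44, 7.50 and 8.32. No mouse of the other groups reached the lowest NEMO IEC-KO value, and the fifth NEMO IEC-KO mouse was the lowest of the 5. The means were 7.76 ± 0.26 and 9.87 ± 0.27, a rise of 2.11 on the log2 scale (SE 0.15, adjusted p = 1.8e-07, limma), 4.31-fold, the largest change of the list in either direction. Among enteroendocrine genes measured beside it, Chga changed by -0.68 (adjusted p = 0.00785, limma), Tph1, the enzyme of serotonin synthesis, by -0.58 (0.0141) and the peptide gene Pyy by 0.59 (0.0369). Their list mean per mouse was 6.94 to 7.20 in NEMO FL and 6.48 to 7.31 in NEMO IEC-KO mice. Which cells carried the Tac1 transcript was not tested. The other peptides did not pass: the estimates were -0.09 for proenkephalin (Penk), 0.13 for galanin (Gal), -0.16 for neuropeptide Y (Npy), 0.21 for Cartpt and 0.02 for the gastrin-releasing peptide Grp.

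Of the receptors and factors of the crest lineage, Ednrb and Gfra2 fell. Per mouse, Ednrb read 7.33, 7.10, 7.50, 7.26 and 7.39 in NEMO FL and 6.44, 6.18, 6.38, 6.55 and 5.75 in NEMO IEC-KO mice. In S166A/S166A mice it lay at 6.38, 6.24, 6.69, 7.38 and 7.25. The NEMO IEC-KO mice lay below all NEMO FL mice but overlapped with S166A/S166A mice 94a and 95a, and the change was -1.06 on the log2 scale (SE 0.15, adjusted p = 9.76e-05, limma), 2.08-fold. Gfra2 is the coreceptor for neurturin, which maintains cholinergic innervation. Gfra2 measured 7.80, 7.75, 8.05, 7.99 and 7.57 in NEMO FL and 6.91, 7.04, 7.32, 7.16 and 6.37 in NEMO IEC-KO mice. Gfra2 in S166A/S166A mice was 7.45, 7.21, 7.58, 8.30 and 7.93. The NEMO IEC-KO mice did not overlap with NEMO FL, and the change was -0.87 on the log2 scale (SE 0.16, adjusted p = 0.00114, limma). Ret, the signalling receptor that GFRA2 works with, gave 7.04, 6.99, 7.16, 7.25 and 7.09 in NEMO FL and 7.15, 7.15, 7.28, 7.68 and 7.27 in NEMO IEC-KO mice, an estimate above 0 of 0.20 (95% interval -0.06 to 0.46, adjusted p = 0.255, limma). The GDNF coreceptor Gfra1 (-0.12) and the transcription factor Hand2 (-0.27) did not pass.

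Of the 6 glial genes 2 fell and none rose (median -0.29), where 13.8% of all probe sets fell and 11.6% rose. Erbb3, the neuregulin receptor of the glial lineage that epithelial cells also use, fell. NEMO FL mice had Erbb3 at 9.12, 9.43, 9.31, 9.70 and 9.25, and NEMO IEC-KO mice at 8.95, 9.02, 8.70, 8.90 and 8.60. Values of 9.30, 9.30, 9.49, 9.37 and 9.15 were read in the S166A/S166A mice. The NEMO IEC-KO mice lay below all others, with a change against NEMO FL mice of -0.53 on the log2 scale (SE 0.13, adjusted p = 0.00786, limma). Entpd2, an ATP-splitting surface enzyme of enteric glia, followed at -0.42 on the log2 scale (SE 0.14, adjusted p = 0.0346, limma). The log2 values of Entpd2 were 7.27, 7.63, 7.72, 7.57 and 7.22 in NEMO FL and 6.97, 7.41, 7.02, 7.05 and 6.86 in NEMO IEC-KO mice. The S166A/S166A mice had 7.44, 7.41, 7.33, 7.49 and 7.48. Mouse 30a, at 7.41, lay among the NEMO FL mice, and the other 4 NEMO IEC-KO mice lay below them. Sox10, the transcription factor that defines enteric glia, had an estimate of -0.35 on the log2 scale (SE 0.14, adjusted p = 0.0865, limma). Per mouse, Sox10 read 5.04, 5.77, 5.24, 5.22 and 5.18 in NEMO FL and 5.12, 4.92, 5.01, 5.00 and 4.62 in NEMO IEC-KO mice. In S166A/S166A mice it lay at 5.06, 5.41, 5.13, 5.58 and 5.33. The groups overlapped through NEMO FL mouse 18a (5.04) and NEMO IEC-KO mouse 16a (5.12). S100b, the calcium-binding protein by which glia are usually stained, differed by 0.01 (95% interval -0.30 to 0.32). S100b measured 4.16, 4.44, 4.04, 4.25 and 4.66 in NEMO FL and 4.31, 4.07, 4.69, 4.32 and 4.20 in NEMO IEC-KO mice. S100b in S166A/S166A mice was 4.13, 4.21, 4.25, 4.26 and 4.23. The ranges of the 3 groups overlapped, all within 4.04 to 4.69. This is close above the 3.97 at which signal without transcript ended, so that a fall could hardly have shown. Gfap and Foxd3 had estimates of -0.22 and -0.21 and did not pass.

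Both genes listed for Cajal cells fell. The mean of Ano1 over all mice lay at percentile 98.5 of the array, and which cells carried either transcript was not tested. NEMO FL mice had Ano1 at 11.41, 11.50, 11.60, 11.58 and 11.13, and NEMO IEC-KO mice at 10.16, 9.90, 9.52, 9.85 and 10.21. Values of 11.33, 11.44, 11.39, 11.47 and 11.17 were read in the S166A/S166A mice. The lowest NEMO FL mouse, at 11.13, lay above the highest NEMO IEC-KO mouse, at 10.21, and the change was -1.52 on the log2 scale (SE 0.14, adjusted p = 2.7e-06, limma), 2.86-fold. The log2 values of Kit were 8.62, 9.06, 9.08, 9.14 and 8.45 in NEMO FL and 7.86, 7.86, 7.35, 7.71 and 7.46 in NEMO IEC-KO mice. The S166A/S166A mice had 8.45, 8.17, 8.54, 8.86 and 8.34. Kit was lower in all 5 NEMO IEC-KO than in all 10 other mice. Against NEMO FL mice alone the change was -1.22 on the log2 scale (SE 0.16, adjusted p = 4.91e-05, limma). Mast cells also carry KIT; of 9 mast cell genes none fell, and Mcpt1 (1.77), Cpa3 (0.65) and Cma1 (0.35) rose. In contrast to Snap25 or Scg2, the fifth NEMO IEC-KO mouse was the highest of its group for Ano1, although its smooth muscle mean was the lowest.

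**Figure D2:**
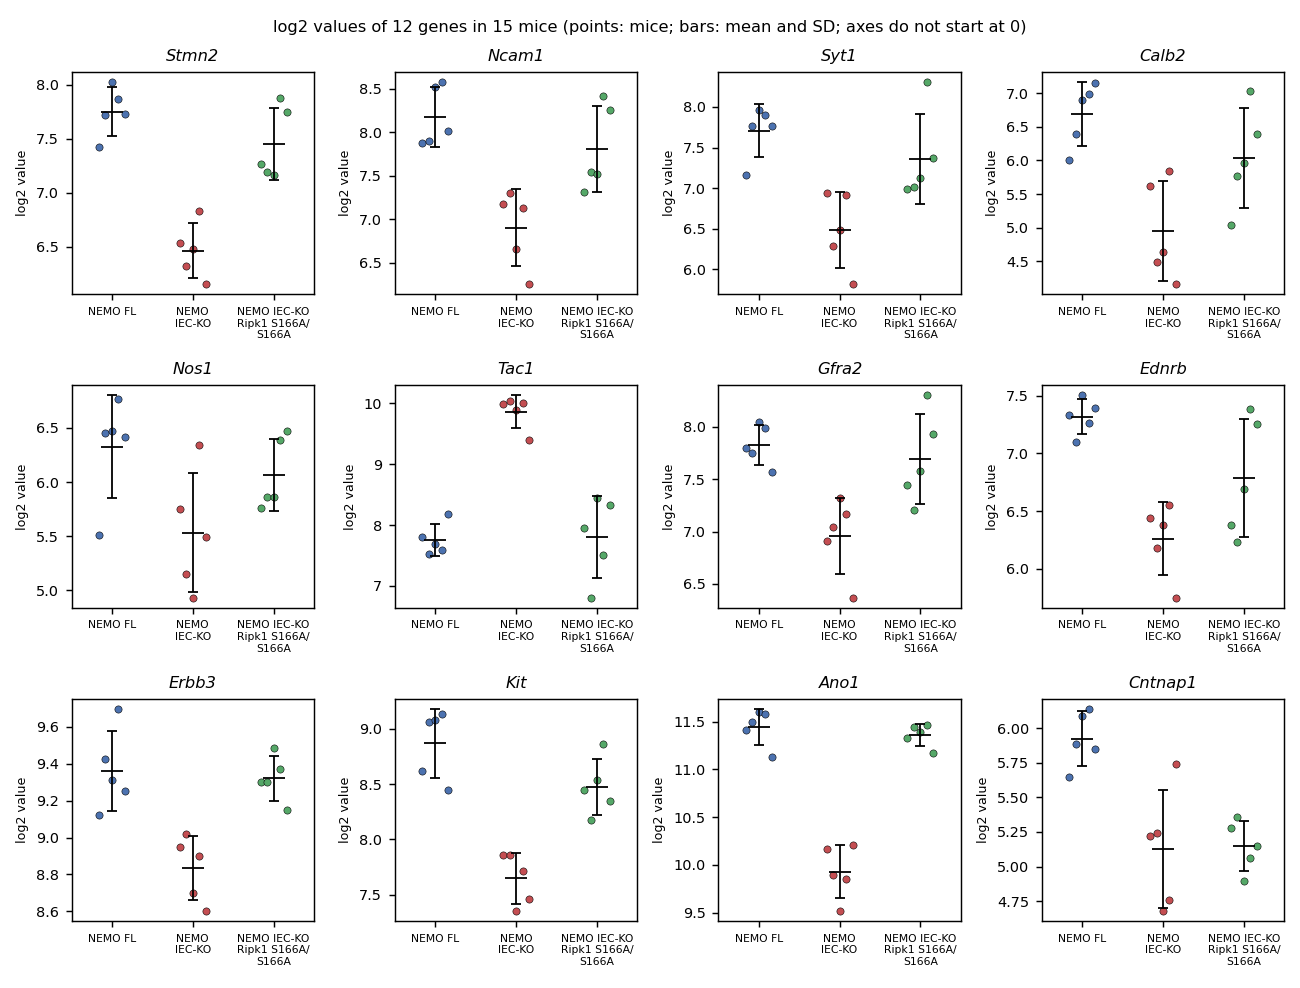
Panels show the log2 value (vertical axis, not from 0) of 12 genes in each of 15 mice, with the mean and SD of the 5 mice of a genotype. Tac1 lies highest in the NEMO IEC-KO mice, Stmn2, Ncam1, Syt1, Erbb3, Kit and Ano1 lie lowest there without overlap with either other group, and Cntnap1 is low in both groups that lack NEMO in epithelium.

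In S166A/S166A mice, which share the epithelial deletion, 10 of the 42 genes were higher than in NEMO IEC-KO mice and 1, Tac1, was lower (limma, adjusted p under 0.05), where 9.33% of all probe sets rose and 9.9% fell. The genes that rose were Ano1, Calb2, Stmn2, Ncam1, Syt1, Kit, Gfra2, Erbb3, Entpd2 and Hand2. Groups did not overlap for 9 genes upwards (7.05% of all probe sets), L1cam and Foxd3 among them without passing, and for Tac1 downwards (6.6%). The median log2 difference of the list was 0.31, against 0.02 for all probe sets. This comparison and the one against NEMO FL use the same 5 NEMO IEC-KO mice, so that they are not independent.

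Ano1 differed the most among those that rose, by 1.43 on the log2 scale (SE 0.14, adjusted p = 8.75e-06, limma), with means of 11.36 ± 0.12 in S166A/S166A and 9.93 ± 0.28 in NEMO IEC-KO mice (SD, n = 5 each). Calb2 rose by 1.09 on the log2 scale (SE 0.35, adjusted p = 0.0414, limma), although mice 94a, at 5.04, and 95a, at 5.77, lay inside the NEMO IEC-KO range, and the call was lost in 7 of 10 removals of a single mouse. Stmn2, Ncam1, Syt1 and Kit rose by 0.98, 0.91, 0.87 and 0.82 (adjusted p = 0.000973, 0.0137, 0.0253 and 0.00152, limma), each without overlap. Gfra2 rose by 0.73, and of glial genes Erbb3 by 0.49 and Entpd2 by 0.37 (adjusted p = 0.022, 0.0116 and 0.0483, limma). Tac1 fell by 2.06 on the log2 scale (adjusted p = 6.75e-05, limma). S166A/S166A mice 27a and 56a, which carried Y-linked transcripts as all 5 did, were the highest of their group for Stmn2, Ncam1, Syt1, Calb2, Gfra2 and Ednrb, while 94a, 95a and 33a were lower.

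Hand2, a transcription factor of enteric neuron differentiation, had not passed in NEMO IEC-KO relative to NEMO FL and passed here at 0.33 on the log2 scale (SE 0.11, adjusted p = 0.0492, limma), a call lost in 9 of 10 removals of a single mouse and held in 5 of 20 alternatives. The Entpd2 call was likewise lost in 9 of 10 removals, that of Syt1 in 4 and that of Gfra2 in 2. Nos1 (0.54, adjusted p = 0.121), Ednrb (0.53, 0.107), Snap25 (0.50, 0.327), Nefl (0.37, 0.21) and Prph (0.29, 0.572) did not pass in limma. Y-linked transcripts were present in all 5 S166A/S166A and in 2 of 5 NEMO IEC-KO mice, so a sex term could be estimated only within the NEMO IEC-KO mice. With that limit, 5 genes rose and 2 fell with a sex term in the fit. Ncam1, Syt1, Calb2, Gfra2, Hand2 and Entpd2 no longer passed, Ano1, Stmn2, Kit, Erbb3 and Tac1 did, and L1cam (higher) and Grp (lower) passed in addition. Leaving out S166A/S166A mouse 27a left 6 of the 11 calls, and leaving out 56a, or NEMO IEC-KO mouse 31a or the fifth, left 7. With 55a counted as NEMO IEC-KO, Ano1, Kit and Tac1 alone passed. Other cell types moved here too: all 14 smooth muscle genes rose (median 1.38), with list means of 9.80 to 10.56 per S166A/S166A mouse, and 6 of 7 leukocyte genes fell (median -1.40), with list means of 5.91 to 6.38.

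Compared with NEMO FL mice, 1 of the 42 genes, Cntnap1, was lower in S166A/S166A mice and none was higher, where 0.0361% of all probe sets fell and 0.0181% rose. At an unadjusted p under 0.05, Cntnap1, Scg2, Calb2, Ednrb, Grp and Kit were lower (6 genes, 5.25% of all probe sets) and none was higher (5.3%). The median log2 difference was -0.10. Cntnap1 had means of 5.92 ± 0.20 in NEMO FL and 5.15 ± 0.18 in S166A/S166A mice, a difference of -0.78 on the log2 scale (SE 0.13, adjusted p = 0.0295, limma), with a 95% interval of -1.04 to -0.51. All 5 S166A/S166A mice lay below all 5 NEMO FL mice (0.903% of all probe sets did, and 0.75% separated upwards, as no member did), and the exact two-sided permutation p was 0.00794. The same gene differed by 0.02 between the S166A/S166A and NEMO IEC-KO mice (95% interval -0.36 to 0.40). Its call against NEMO FL was lost when any of 8 single mice was left out, with adjusted p up to 0.133, and when all 3 groups were fitted together. No sex term was fitted in this comparison. All 5 S166A/S166A but 1 of 5 NEMO FL mice carried Y-linked transcripts, so that sex and genotype could hardly be told apart. Smooth muscle genes did not pass here (0 of 14, median -0.20, 1 at an unadjusted p under 0.05).

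For the other genes the intervals set how large a remaining difference could be. Ano1 lay at -0.09 (95% interval -0.34 to 0.16) and Erbb3 at -0.04 (-0.30 to 0.22). The glial genes ranged from -0.10 for S100b to 0.09 for Foxd3, with Sox10 at 0.01 (-0.30 to 0.32). Tac1, at 0.05, had a wide interval (-0.48 to 0.57), since the S166A/S166A mice spread from 6.81 to 8.44. Kit (-0.40, -0.73 to -0.06), Ednrb (-0.53, -0.94 to -0.12), Calb2 (-0.65, -1.28 to -0.02) and Scg2 (-0.65, -1.10 to -0.20) had intervals below 0 but did not pass over the whole table (adjusted p from 0.389 to 0.461 in limma). Of the 16 genes that passed in NEMO IEC-KO relative to NEMO FL mice, the S166A/S166A mean was nearer to NEMO FL in 13 and nearer to NEMO IEC-KO in Prph and Cntnap1, by the means alone, while Ednrb lay midway, 0.53 from either. These 16 were picked by the difference between those same groups. The share of all passing probe sets nearer to NEMO FL was not counted, so the 13 cannot be read as particular to the list.

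Further genes listed for these cells also fell, some of them shared with other cells. Of 39 further neuronal genes 36 were analysed here. In NEMO IEC-KO relative to NEMO FL mice 11 fell and none rose (median -0.33). Over the whole array 13.8% of probe sets fell and 11.6% rose, also the background of the glial and Cajal counts below. In S166A/S166A against NEMO IEC-KO mice 8 rose, where 9.33% of all probe sets did. The largest change was that of Casq2 (-1.98), a calcium store protein better known from muscle. Then came the synaptic vesicle protein Syn2 (-1.75), the serotonin receptor Htr4 (-1.53), which other gut cells also carry, and the choline transporter Slc5a7 (-0.97). Slc5a7 supplies the cholinergic neurons whose enzyme Chat could not be read. The adjusted p of Slc5a7 was 0.000389 against NEMO FL and 0.428 in S166A/S166A against NEMO IEC-KO mice (limma). Slc5a7 read 3.60 to 4.36 in NEMO IEC-KO and 3.65 to 5.35 in S166A/S166A mice. Both ranges reach into the 2.28 to 3.97 of signal without transcript, so the size of these changes is uncertain. Of 14 further glial genes 12 were analysed here and 6 fell, led by the cadherin Cdh19 (-1.60) and the sodium channel Scn7a (-1.21), and none rose. Cdh19 read 2.82 to 4.96 in NEMO IEC-KO mice, with a mean of 3.76. That mean lay below the 3.97 at which signal without transcript ended, so the size of its fall is uncertain. Of 11 further genes of Cajal and PDGFRA-positive cells 9 were analysed here and 8 fell, among them Etv1 (-1.13), the transcription factor of Cajal cells, and Prkg1 (-1.50), a kinase also found in smooth muscle. In the S166A/S166A mice none of these 3 lists had a gene past the test against NEMO FL, where 0.0361% of all probe sets fell and 0.0181% rose. An unadjusted p under 0.05 (limma) was reached below 0 by 4 neuronal, 2 glial and 3 Cajal cell genes (5.25% of all probe sets). Above 0 it was reached by 1, 1 and 0 (5.3%).

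Ligands of these receptors showed few calls, in both directions. Of 13 ligands and coreceptors 11 were analysed here. In NEMO IEC-KO relative to NEMO FL mice 2 rose and 2 fell (median 0.06), where 11.6% of all probe sets rose and 13.8% fell. Nrg1, the neuregulin that binds ERBB3, rose by 1.23 (adjusted p = 2.74e-05, limma), from 6.56 to 7.29 in NEMO FL to 7.82 to 8.41 in NEMO IEC-KO mice, where Erbb3 fell. In S166A/S166A mice Nrg1 lay at 6.80 to 7.44 and changed by -1.08 against NEMO IEC-KO mice (adjusted p = 0.00018, limma). The neurotrophin Bdnf rose by 0.38 (0.0267), from 3.83 to 4.25 in NEMO FL to 4.22 to 4.52 in NEMO IEC-KO mice. The NEMO FL values lay partly within the 2.28 to 3.97 of signal without transcript. Kitl, the ligand of KIT, changed by -0.52 (0.00222) and Ece1, which activates endothelins, by -0.35 (0.0353), both lower beside Kit and Ednrb. Gdnf (0.06), Nrtn (-0.04), the ligand of GFRA2, and Edn3 (0.20), the ligand of EDNRB, did not pass.

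**Figure D3:**
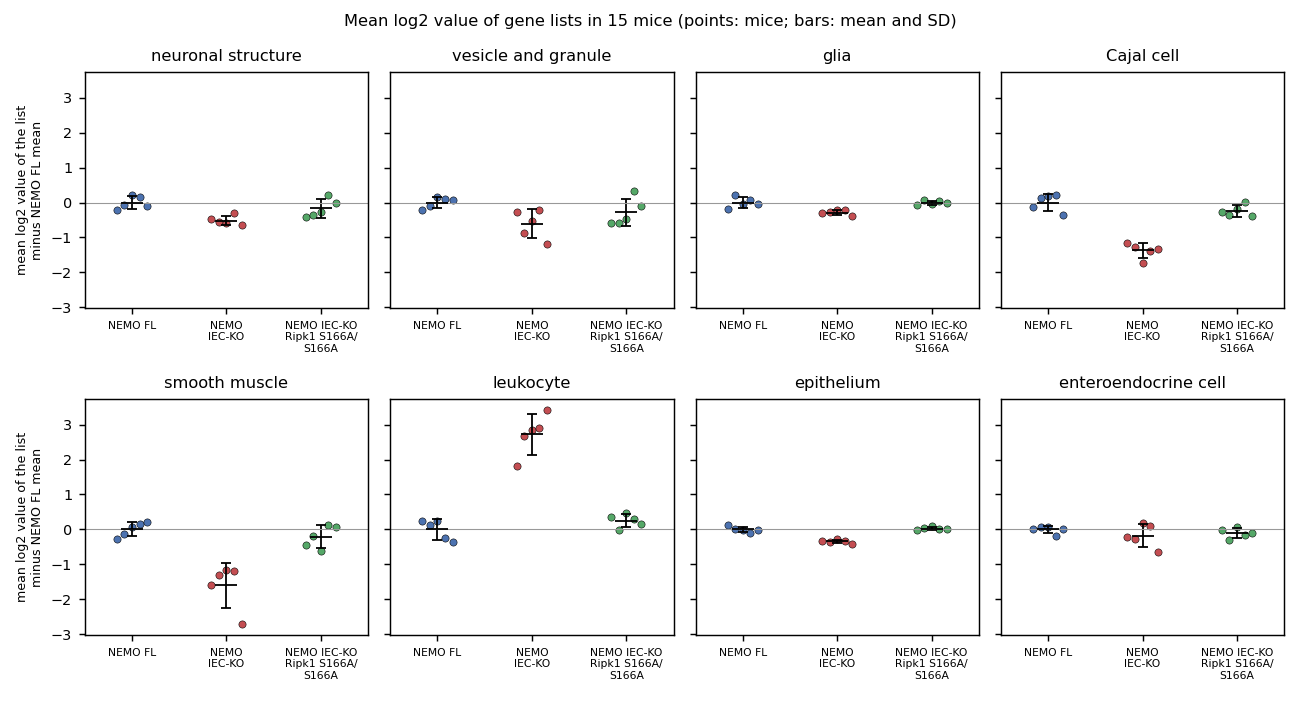
Each point is 1 mouse's mean log2 value over a gene list, minus the NEMO FL mean of that list; bars give the mean and SD of 5 mice, on 1 common axis. The Cajal cell and smooth muscle means lie lower and the leukocyte mean higher in all 5 NEMO IEC-KO mice than in the other 10, with the fifth of them at the lower end for muscle (7.71 before subtraction) and at the upper end for leukocytes (9.35).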

How the data were processed

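Total colon RNA of 15 mice was hybridised to 1 array each. The authors deposited 1 table of 22142 probe sets whose values are, from their range (1.69 to 13.6), taken as log2; the labels name Affymetrix Expression Console and Transcriptome Analysis Console, and the log base, summary and normalization are not given in the sources used here. Values were used as deposited, with no filter. Each pair of groups was fitted alone in limma 3.58.1 (R 4.3.3; lmFit, eBayes), p-values being adjusted over the whole table (Benjamini-Hochberg) and called under 0.05. Each array is 1 mouse, so that p-values measure the spread between mice, and 5 arrays per group limit the precision. Intervals are 95% limma intervals; exact permutation tests were two-sided. The script was tested on simulated data. Probe sets were named through the platform annotation and GRCm38.p6 RefSeq symbols: 19527 had exactly 1 symbol, and the other 2615 had none or several and were left unnamed.

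The members, roles and marker lists were chosen with earlier results of these data known, so no list is tested. Values per mouse are given for up to 3 members per role with the largest passing change in NEMO IEC-KO relative to NEMO FL mice, any member passing in S166A/S166A against NEMO FL mice or against its role, and Elavl4, Sox10, S100b, Kit and Ano1; the values of Ret and Scg2 were added after they were seen; any member may be named, and genes outside the list were named after their values were seen. Alternatives were the 3 groups in 1 fit, trend and robust eBayes, array weights, median centring, quantile normalization, dim probe sets left out (25th percentile or median), mouse 55a as NEMO IEC-KO, 94a and 95a left out, a sex term from Y-linked genes, other thresholds and each mouse left out. The sex term was fitted only where NEMO IEC-KO mice were compared, not for S166A/S166A against NEMO FL mice. Its use for the medians was added after seeing the data.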

Additional observations from a re-analysis of the deposited data

Results flagged for a closer look

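Among 126 sets of 5 values (42 genes in 3 groups), 9 held a mouse that lay far from the other 4 by Dixon's test, where chance gives about 1 in 20, or 6.3. NEMO FL mouse 18a was low for Syt1 (7.16, the next 7.76) and for Nos1 (5.51, the next 6.42), and NEMO FL mouse 22a was high for Sox10 (5.77). The fifth NEMO IEC-KO mouse was low for Scg2 (4.88, the next 6.63) and for Tac1 (9.40, the next 9.89). The fourth NEMO IEC-KO mouse was high for the peptide gene Gal (5.65, the next 4.47) and for Ret (7.68, the next 7.28). Of the S166A/S166A mice, 27a was high for Syt1 (8.31, the next 7.37) and 95a for the glial filament Gfap (6.68, the next 6.24).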

How the results depend on the processing

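Of 42 genes, 16 passed in NEMO IEC-KO relative to NEMO FL mice. With mouse 55a counted as NEMO IEC-KO, 8 did (7 lower, 1 higher), when 8.16% of all probe sets passed; under the other alternatives the count was 11 to 18, and 11 to 18 with 1 mouse left out. In S166A/S166A against NEMO IEC-KO mice 11 passed, with 3 when 55a was moved, 7 with a sex term, 4 at an adjusted p under 0.01, and 6 to 11 with 1 mouse left out. Against NEMO FL mice 1 passed in the S166A/S166A mice, with 3 (Cntnap1, Scg2 and Calb2) at a fold over 1.5 and an unadjusted p under 0.05, and 0 with all 3 groups in 1 fit, with trend and robust eBayes, with probe sets below the median left out (Cntnap1 was then not tested), with 55a moved, without 94a and 95a, and at an adjusted p under 0.01. With 1 mouse left out it was 0 to 1, and 1 only without S166A/S166A mouse 95a or NEMO FL mouse 18a. The list's medians kept their sign under every alternative run: -0.43 to -0.31, 0.20 to 0.37 and -0.21 to -0.03 in the 3 comparisons.

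Direction turned in 31 of 962 values of the 17 genes followed by mouse, in 7 results, none past the threshold in either setting. S100b in NEMO IEC-KO relative to NEMO FL mice went to -0.00902 with quantile normalization, to -0.0648 with a sex term, and ran from -0.0858 to 0.0964 with 1 mouse left out. Cntnap1 in S166A/S166A against NEMO IEC-KO mice went to -0.00803 with arrays centred, -0.0345 with quantile normalization, -0.100 with 55a moved and -0.0923 without 94a and 95a, and from -0.0919 to 0.173 with 1 mouse left out. In S166A/S166A against NEMO FL mice Gfra2 went to 0.106 without 94a and 95a, and Erbb3 to 0.0117 with quantile normalization. Sox10 there went to -0.0191 with array weights, -0.0504 with quantile normalization and -0.0139 with 55a moved. With 1 mouse left out Tac1 ran from -0.110 to 0.299, Erbb3 from -0.0996 to 0.0444, Entpd2 from -0.117 to 0.00746 and Sox10 from -0.0556 to 0.133 in that comparison. Of the other values 847 kept their direction and side of the threshold, 81 lost a call and 3 gained one: Elavl4 in NEMO IEC-KO relative to NEMO FL mice without 18a (adjusted p = 0.0109, limma), and in S166A/S166A against NEMO IEC-KO mice Nos1 without the fourth NEMO IEC-KO mouse (0.0216) and Ednrb without 94a and 95a (0.0215). The cause of these shifts was not tested. No member had a further probe set to exchange among those with exactly 1 symbol. Genes near the lower end of the signal, Chat above all, could not be judged.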
